A study of Caenorhabditis elegans with 20 samples.

Results

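In Caenorhabditis elegans carrying extra copies of elt-2, RNA of cuticle collagens, sperm proteins, contractile muscle proteins and intestinal proteases was far lower in Day 13 adults than in L4 larvae, while RNA of eggshell, DNA replication and autophagy genes was higher. The comparison used the 10 libraries of the overexpressing strain among the 20 of the series: 5 of L4 larvae, the last larval stage, and 5 of adults on Day 13 of adulthood, each group lettered A to E. Libraries were taken by their labelled strain and age and by nothing measured in them. Members of the comparison are the 8863 genes with enough reads to test, of 21383 in the count table.

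ELT-2 is a GATA-type zinc finger transcription factor that induces intestinal genes in the embryo and regulates them in larvae and adults. In the intestine it binds the promoters of proteases, lysozymes, lectins and lumen proteins. The cuticle is a collagen coat that larvae rebuild at each moult and that L4 animals renew for the last time on becoming adult. Hermaphrodites make their sperm around the L4 stage and then switch for life to oocytes, which the adult intestine supplies with yolk by secreting vitellogenins.

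The overexpressing strain, SD1963, has the genotype rde-1(ne300); unc-119(ed3); Ex[elt-2:GFP;unc-119(+)], and the control strain, SD1965, has rde-1(ne300); unc-119(ed3); Ex[unc-119(+)]. These are the strain labels of the libraries. The growth protocol in the labels instead names N2, the wild type, for the L4 animals, and the methods of the study use the name SD1965 for an overexpressing line as well as for the control, so that the identity of the L4 and control worms rests on the strain labels. By these labels both share the mutation in rde-1, an Argonaute gene of the RNA interference pathway, and in unc-119, a gene of the nervous system whose working copy marks animals that keep the array. SD1963 is 1 line with a multicopy extrachromosomal array, on which the region upstream of elt-2 drives elt-2 joined to GFP, ended by the 3′ end of unc-54. Each library pooled many whole worms of a synchronized population. L4 larvae were grown on ordinary plates with E. coli OP50, whereas adults lived from Day 1 on plates with FUDR, which blocks DNA synthesis and so the growth of progeny, were washed over nylon mesh to take away eggs and young, and had the dead removed on Day 13. By the labels, a difference between Day 13 and L4 therefore holds larva against adult, age, FUDR and survival to Day 13 together. These cannot be told apart. In whole worms, fewer cells of a type and less RNA per cell cannot be told apart either.

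The method, 3SEQ, reads the 3′ ends of polyadenylated RNA, and each transcript gives the same number of fragments whatever its length. Levels below are counts scaled to a common library total (CPM) with TMM factors, which correct for differences in library composition. The factors for CPM were computed within each strain, so CPM of overexpressing and control worms are not on a shared scale. The 10 libraries held 14598831 to 33472155 counts, of which 92.3% to 96.7% fell on the most abundant 3% of genes and 60.8% to 71.9% on cytosolic ribosomal protein genes. The remaining genes shared 629940 to 1032754 counts a library, and 3 counts, the least taken as detection, stood for 0.0983 to 0.150 CPM. The libraries of each age fell into a set of letters A to C and a set of letters D and E. At L4, pairs within a set correlated at r = 0.951 to 0.975 (log2 CPM over genes) and pairs from different sets at 0.791 to 0.846. At Day 13 the values were 0.932 to 0.973 within and 0.843 to 0.934 between. The labels name no batch. The libraries labelled L4 A to C held far more RNA of yolk, eggshell and adult cuticle than L4 D and E, as the values below show for each family, so the main lists are also given within each set of letters. The larval stage of L4 A to C thus rests on the label alone. Whether these libraries were at the same stage as L4 D and E was not tested.

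The overexpressed gene stood at 4.78, 5.11, 3.31, 8.92 and 11.3 CPM in L4 libraries A to E and 5.90, 7.54, 7.63, 5.51 and 7.58 CPM in Day 13 libraries A to E. The lowest and the highest of these libraries were both L4, and the ages overlapped. The fitted log2 change was 0.03 ± 0.38 (SE, edgeR, adjusted p = 0.952), and an exact permutation test over the 252 ways to split the libraries gave p = 0.683 (two-sided). This averages opposite directions, with a log2 change of 0.48 in letters A to C and -0.48 in D and E, neither of them called. Control worms held 0.713 to 3.47 CPM at L4 and 0.791 to 1.24 CPM at Day 13. At Day 13 every overexpressing library was above every control library, with means of 6.83 and 1.05 CPM (6.53-fold). At L4 the means were 6.68 and 1.72 CPM (3.88-fold), and the strains overlapped in range. The overexpressing L4 library C, at 3.31 CPM, lay below the highest control value. Reads from the array and from the chromosomal elt-2 were not separated, and since the array's transcript ends in the 3′ end of unc-54, where 3SEQ reads lie, its reads may have been counted at unc-54 and not at elt-2. The related intestinal GATA gene elt-7 did not pass the test (-0.32 ± 0.33, SE, edgeR, adjusted p = 0.464). The marker gene unc-119 gave 86 to 547 counts in the 10 overexpressing libraries but 0 to 32 in the 10 control libraries, although both strains are labelled as carrying its working copy. In overexpressing worms unc-119 fell from 7.23–27.4 CPM to 3.85–10.6 CPM, with ranges that overlapped and a log2 change of -1.22 ± 0.48 (SE, edgeR, adjusted p = 0.0625). The call was lost without several single libraries, among them L4 E.

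At a false discovery rate of 10% (edgeR quasi-likelihood test, Benjamini-Hochberg adjustment over all 8863 genes), 4361 genes (49.2%) changed between L4 and Day 13. Of the genes tested, 2291 (25.8%) were higher and 2070 (23.4%) lower at Day 13. In 1367 genes all 5 Day 13 libraries lay above all 5 L4 libraries, and in 1415 all lay below, 31.4% of genes together. Of the 4361 genes, 3918 moved the same way in all 5 letters and 2929 were called the same way in each letter set alone. Calling over all letters favours genes that move alike in every library, so these counts do not measure how alike the sets are. The median log2 change over all genes was 0.22 and moved with the scaling, from 0.08 with RLE size factors to 0.38 when totals left out the most abundant 3% of genes. A list whose share of called members is near these background shares is no result about the list. The lists are families, structures and functions compiled from general knowledge, and they were chosen with earlier results of these data known. Each is described by its counts and median, without a test of the list.

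**Figure D1:**
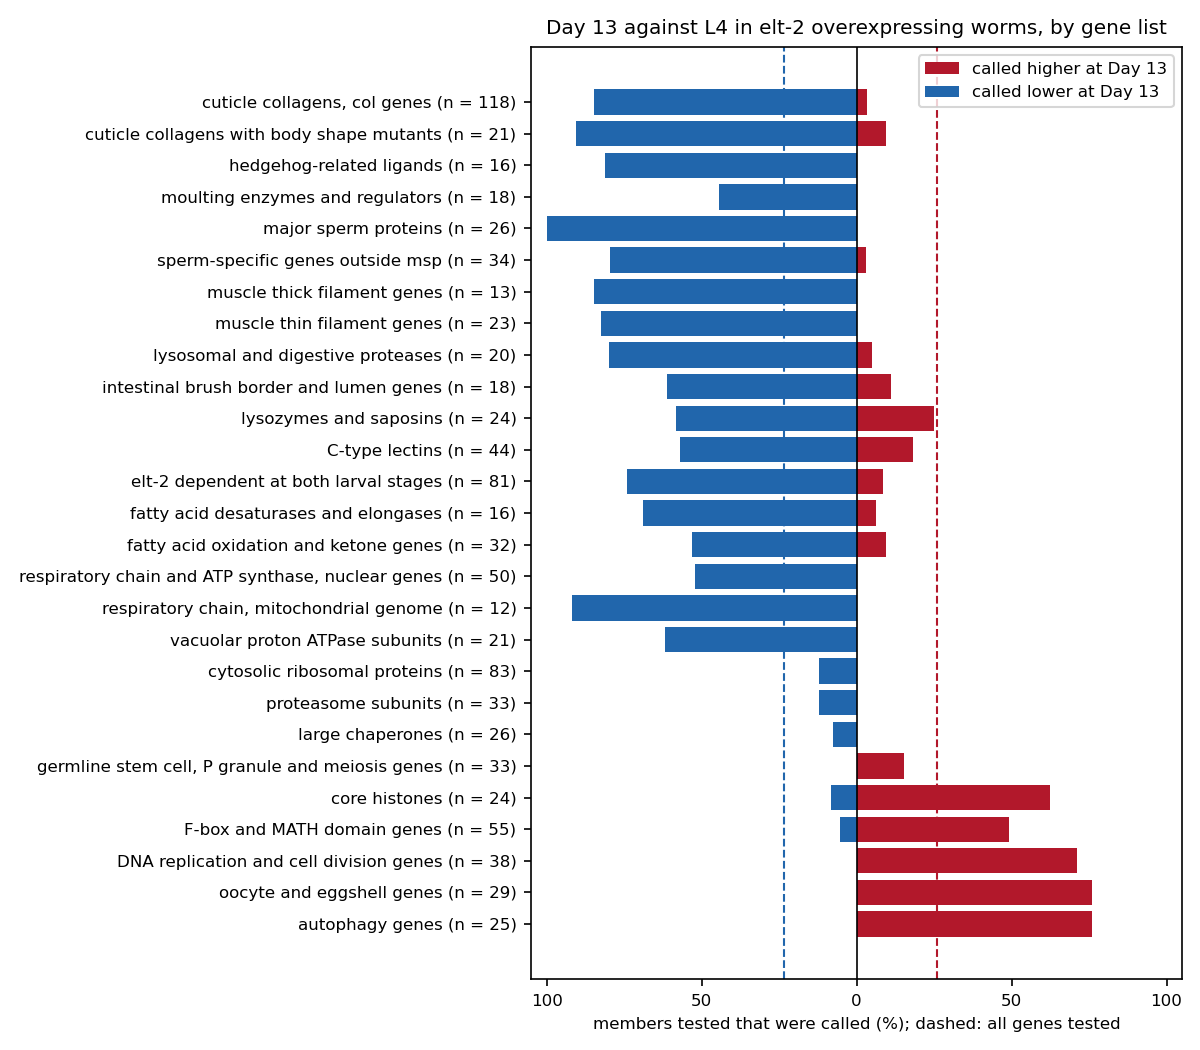
Share of the tested members of each gene list that were called higher (red, to the right) or lower (blue, to the left) at Day 13 than at L4, in percent; the number of members tested follows each name, and dashed lines mark the shares over all genes tested, 25.8% and 23.4%. Cuticle, sperm, muscle and digestive lists reach far to the left, and the eggshell, replication and autophagy lists to the right.

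Cuticle collagens were the list with the most genes lower at Day 13. Of 156 genes named col in the table, 118 had enough reads, and 100 of these were lower and 4 higher at Day 13, with a median log2 change of -6.85. Together they made up 127106, 199723, 139566, 33447 and 31250.2 CPM in L4 libraries A to E and 5064, 21350.1, 10404, 4174 and 5657 CPM in Day 13 libraries A to E. Every Day 13 library was below every L4 library, and the mean of the L4 libraries was 11.4 times that of the Day 13 libraries. The largest decrease of all genes under the rule for named genes was that of col-73, at 369, 655, 1271, 3455 and 1862 CPM in L4 libraries A to E and 0.131, 0.0960, 0.493, 0.0396 and 0.167 CPM in Day 13 libraries A to E. Its log2 change of -12.98 ± 1.08 (SE, edgeR, adjusted p = 1.34e-05) rests on 1–11 counts a library at Day 13 and depends on the prior count of the fit. Also among the 10 largest decreases were col-170, col-93, col-147, col-175, col-159 and col-146, with fitted log2 changes of -12.75 to -11.98. The other 3 were the uncharacterized T06G6.6, K02E11.10 and C02E7.7. C02E7.7 fell from 269–1456 to 0–0.449 CPM and K02E11.10 from 10.9–114 CPM to 0–1 counts, and T06G6.6 had no count at Day 13 and was at least 220.3-fold lower than at L4, taking 3 counts a library as the floor. Several of these lie in families of near-identical copies, and col-93, col-147 and col-159 overlap a gene on the other strand, so that reads may have been split or shared.

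The 21 collagens in which mutations make worms dumpy, long, rolling or blistered were all called, 19 lower and 2 higher, with a median of -8.36. Within this list dpy-5 was the most abundant, at 488, 1689.5, 1419.6, 4875 and 3427 CPM in L4 libraries A to E and 2.78, 11.6, 5.79, 5.39 and 3.01 CPM in Day 13 libraries A to E. Its L4 libraries D and E were far above A to C, and the lowest L4 library was still far above the highest Day 13 library (log2 change -8.70 ± 0.83, SE, edgeR adjusted p = 2.52e-05). The same held for dpy-4 (315–3780.3 CPM at L4, 0.277–1.01 CPM at Day 13) and sqt-1 (113–2425 CPM at L4, 0.0837–0.672 CPM at Day 13). In the other direction, dpy-14 rose from 0.0871–0.880 to 19.5–44.7 CPM, a log2 change of 6.34 ± 0.62 (SE, edgeR, adjusted p = 2.6e-05). Among the col genes, col-183 rose from 0.0838–7.80 to 27.9–70.4 CPM (4.52 ± 1.17, SE), and it overlaps a gene on the other strand. The 2 most abundant col genes, col-140 and col-106, differed widely between the sets of letters. col-140 stood at 12077, 20438, 9945, 219 and 216 CPM in L4 libraries A to E and at 134, 718, 288, 226 and 243 CPM at Day 13, with L4 A to C above all Day 13 libraries and L4 D and E not above them all. Letters A to C gave a log2 change of -5.41, and D and E a change of 0.25. For col-106, which was not called over all letters, the changes were -2.80 and 2.53. The col-19 gene, which is made in adult cuticle, was also high in L4 A to C alone, with 7634 to 13555 CPM in L4 A to C, 137 to 150 CPM in L4 D and E and 173 to 818 CPM at Day 13.

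Genes that act around the moult differed in how many passed the test. Hedgehog-related ligands, secreted proteins, several of which are needed for moulting, had 16 of 58 members tested, of which 13 fell and none rose, with a median of -7.01. The most abundant, grd-3, stood at 342, 393, 344, 56.7 and 193 CPM in L4 libraries A to E and 0.164, 0.480, 0.224, 0.158 and 0.209 CPM in Day 13 libraries A to E. The ages did not overlap, and the log2 change was -10.06 ± 0.76 (SE, edgeR, adjusted p = 8.38e-06). qua-1, which is needed for moulting, fell from 23.7–513 to 0.864–2.06 CPM, though it overlaps a gene on the other strand. grl-7 had the largest decrease of the list, from 0.673–32.3 CPM at L4 to 0 counts in every Day 13 library, which is at least 110.2-fold lower with 3 counts a library as the floor. Of 8 patched-related receptors tested, 5 were lower, but ptc-1 (0.51) and ptr-2 (1.65), the most abundant, did not pass. Of 18 moulting enzymes and regulators, 8 were lower and none higher. The sets of letters differed here, with 4 higher and 5 lower in A to C (median -0.33) and none higher and 12 lower in D and E (median -2.43). Of 9 cuticlins, proteins of the insoluble cuticle layer, 3 were lower, and the median was -0.21 in A to C and -2.20 in D and E. cut-2 fell from 85.7–548 to 0.436–3.12 CPM, a log2 change of -7.87 ± 0.82 (SE, edgeR, adjusted p = 3.43e-05).

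Sperm genes fell. The major sperm proteins, which form the cytoskeleton of the crawling sperm and also signal to oocytes, had 26 of 31 genes tested, and all 26 were lower at Day 13, with a median of -5.73. Their sum was 9994, 8017, 8706, 1727 and 1280.4 CPM in L4 libraries A to E and 66.9, 139.8, 240.3, 119.1 and 98.0 CPM at Day 13. L4 libraries A to C held several times the level of D and E, and all were above Day 13. The 2 most abundant were msp-64 and msp-40, and msp-40 stood at 258–1165 CPM at L4 and 6.88–31.9 CPM at Day 13 (log2 change -5.25 ± 0.66, SE, edgeR adjusted p = 9.51e-05). The msp genes are near-identical copies, so values of single members are uncertain. Of 34 other sperm-specific genes tested, 27 were lower and 1 higher. The small peptide gene nspd-2 fell from 171–2549.6 to 14.9–45.5 CPM (-5.50) and ssp-19 from 3.16–87.3 to 0.198–1.88 CPM (-5.86). The member that rose was spe-48, from 0.351–1.13 to 1.35–2.03 CPM (1.34 ± 0.35, SE). In the group of nematode-specific peptides nspa to nspe, 8 of 15 tested were lower and none higher.

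Muscle genes were lower in both filament systems. Of 13 thick filament genes 11 fell, with a median of -3.90, and of 23 thin filament genes 19 fell, with a median of -3.22, while none rose in either list. unc-54, the main myosin heavy chain of the body wall, stood at 143, 157, 168, 183 and 277 CPM in L4 libraries A to E and 1.24, 3.12, 2.06, 1.51 and 1.76 CPM in Day 13 libraries A to E. The ages were wholly apart, with a log2 change of -6.58 ± 0.46 (SE, edgeR, adjusted p = 7.4e-06). Reads of the array may be among these counts, and control worms, whose labelled array has no elt-2, gave a log2 change of -5.88. The regulatory light chain gene mlc-2, which overlaps a gene on the other strand, fell from 1326–2751 to 74.5–122 CPM, and the essential light chain gene mlc-3 from 205–515 to 10.1–25.4 CPM (-4.19 ± 0.43, SE). All 3 parts of the troponin complex behaved alike. tnt-2, for troponin T, fell from 74.5–644 to 0.229–4.19 CPM (-7.61), unc-27, for troponin I, from 559–1429 to 15.6–47.8 CPM (-5.12), and pat-10, for troponin C, from 816–2098 to 19.8–108 CPM (-4.51). The sum over the thick filament list was 2434 ± 783 CPM at L4 (SD, n = 5) and 127 ± 26.4 CPM at Day 13. Letters A to C gave a thick filament median of -3.71, and letters D and E -4.30. The 3 pharyngeal muscle markers (myo-1, myo-2 and tnc-2) were lower too.

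**Figure D2:**
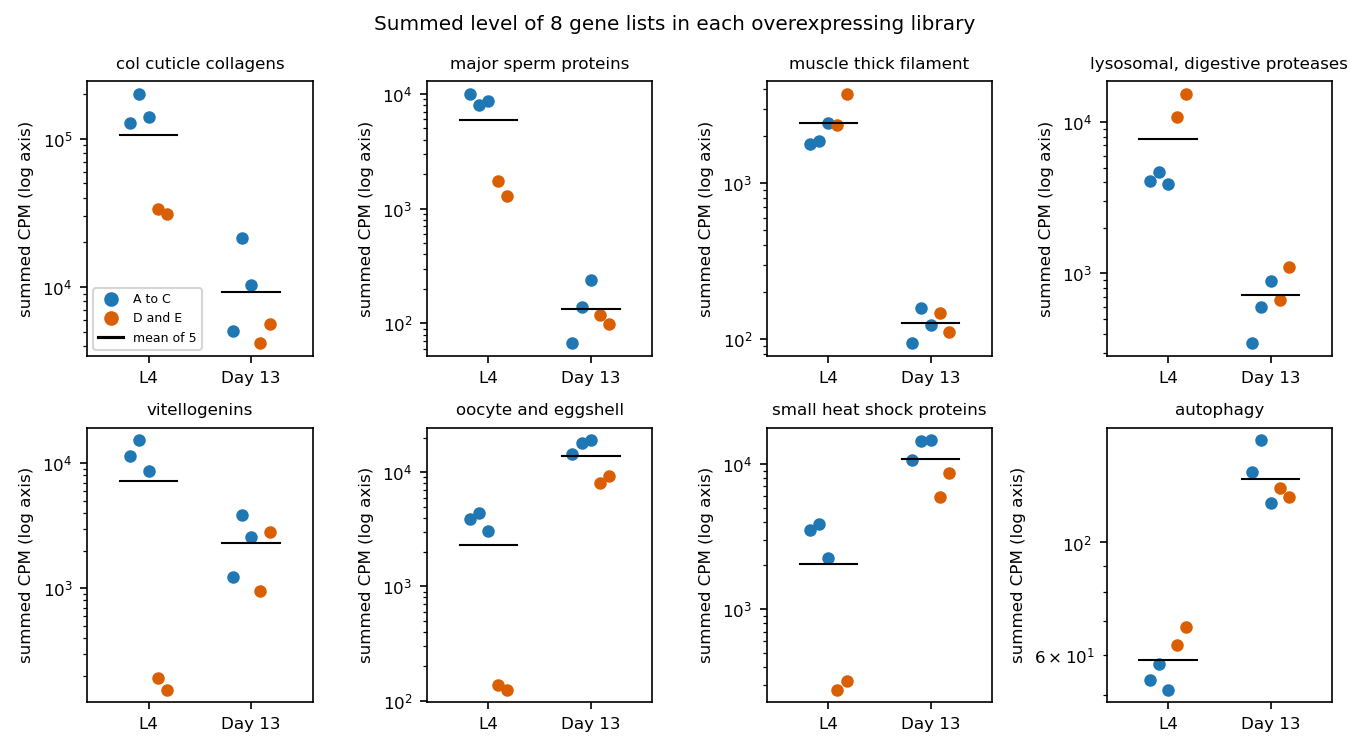
Summed TMM-scaled CPM (log axis) of 8 gene lists in each of the 10 libraries at L4 and Day 13; blue points are letters A to C, orange points letters D and E, and black lines mark the mean of 5. Collagen, sperm, muscle and protease sums are lower in every Day 13 library, eggshell, small heat shock protein and autophagy sums are higher at Day 13 within each letter set, and vitellogenin sums are high in L4 A to C and low in L4 D and E.

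Genes of the intestine, where ELT-2 acts, were lower in most groups, while elt-2 RNA itself did not pass the test. The study's own lists of genes that depend on elt-2, made with elt-2 RNAi in wild-type L1 and L4 larvae and so from other libraries, hold 81 tested genes that depend on it at both stages. Of these 60 were lower and 7 higher at Day 13, with a median of -2.26, against 23.4% and 25.8% over all genes. The split was 7 higher and 60 lower in letters A to C, and 6 and 54 in D and E. Of 37 genes dependent at L4 alone, 16 were lower and 9 higher, and of 54 dependent at L1 alone, 27 and 10. In control worms the median over the 75 genes of the first list tested in both strains was -2.04, beside -2.26 in overexpressing worms. The study classed genes by a change under RNAi in either direction, so the lists can hold genes that RNAi raised.

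Lysosomal and digestive proteases had 16 of 20 members lower and 1 higher. The aspartic protease gene asp-1 stood at 879.7, 1003, 876, 2572 and 4830.2 CPM in L4 libraries A to E and 9.37, 18.6, 62.7, 45.0 and 113 CPM in Day 13 libraries A to E. Every Day 13 library was below every L4 library, with L4 D and E the highest, and the log2 change was -5.35 ± 0.85 (SE, edgeR, adjusted p = 0.000466). asp-3, another aspartic protease and among the most abundant genes dependent on elt-2 at both stages, fell from 88.7–2214 to 1.30–53.9 CPM, and the cathepsin B-like cpr-1 from 464–1493 to 26.3–127 CPM. The exception was cpr-2, also cathepsin B-like, which was at 0–0.587 CPM at L4 and 6.53–66.5 CPM at Day 13 (log2 change 7.46 ± 1.25, SE, edgeR adjusted p = 0.000676). Of 18 brush border and lumen genes, 11 were lower and 2 higher. act-5, the actin of the microvilli, fell from 30.4–696 to 7.18–24.6 CPM and ifc-1, an intestinal intermediate filament gene, from 11.4–56.2 to 0–0.158 CPM. ges-1, the gut esterase long used as an intestinal marker, fell from 0.637–1.93 to 0.164–0.384 CPM (-2.13 ± 0.41, SE). Together with ges-1, the study used gst-42 and lgmn-1, a legumain-type protease gene, as reporters of ELT-2. gst-42 fell by the same test (-3.20) and lgmn-1 rose from 0.150–2.70 to 5.02–11.2 CPM (2.72 ± 0.59, SE).

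Lysozymes, saposins and lectins, the antibacterial part of the intestinal repertoire, were lower more often than genes at large. Single members rose, but the share that was higher was not above the background. Of 24 lysozymes and saposins 14 were lower (58.3%) and 6 higher (25%), against 23.4% and 25.8% over all genes. The invertebrate-type lysozyme gene ilys-5 stood at 2396, 5894, 2638, 3332 and 3649 CPM in L4 libraries A to E and 4.81, 67.6, 58.7, 17.6 and 51.6 CPM in Day 13 libraries A to E. It was the most abundant of the list at L4 and low in every Day 13 library, with a log2 change of -6.48 ± 0.75 (SE, edgeR, adjusted p = 6.35e-05). The opposite was seen for ilys-3, of the same lysozyme type, at 2.87, 16.3, 12.7, 25.5 and 7.17 CPM in L4 libraries A to E and 1188, 1638, 1696, 1798 and 1102 CPM in Day 13 libraries A to E. All Day 13 libraries were above all L4 libraries, and the log2 change was 6.84 ± 0.65 (SE, edgeR, adjusted p = 2.21e-05). ilys-2 rose from 3.97–17.4 to 263–1292 CPM and had the largest increase of the genes dependent on elt-2 at both stages, whereas lys-4 fell from 21.1–218 to 0.557–1.34 CPM and had their largest decrease. Among 44 C-type lectins 25 were lower (56.8%) and 8 higher (18.2%). clec-50 fell from 146–332 to 8.61–49.3 CPM (-2.88 ± 0.51, SE), and clec-266, which overlaps a gene on the other strand, went from 0–3 counts a library to 9.32–62.4 CPM.

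Small secreted peptides of the epidermis and nervous system held members that moved each way. Of 31 nlp genes 7 were higher (22.6%) and 11 lower (35.5%), against 25.8% and 23.4% over all genes. Of 26 caenacins and fungus-induced peptides, antimicrobial peptides of the epidermis, 8 were higher (30.8%) and 13 lower (50%). The shares that were higher were thus near the background. nlp-34 stood at 31.3, 65.9, 85.7, 44.9 and 42.8 CPM in L4 libraries A to E and 1244, 1715, 1051, 921 and 424 CPM in Day 13 libraries A to E. The ages did not overlap (log2 change 4.31 ± 0.49, SE, edgeR adjusted p = 5.48e-05). nlp-24, which overlaps a gene on the other strand, fell from 585–1344 to 6.65–18.4 CPM (-6.46), while nlp-27, the most abundant of the list, held 195–2907 CPM at L4 and 826–2465 CPM at Day 13 and did not pass. cnc-2 rose from 2.62–5.19 to 42.4–115.3 CPM (4.43) and fipr-21 fell from 1966–5083 to 115.2–277 CPM (-3.93). Of 19 FMRFamide-like neuropeptide genes 9 were lower (47.4%) and 1 higher (5.26%), and of 14 general neuronal genes 5 were lower (35.7%) and 4 higher (28.6%).

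Among genes of lipid and energy metabolism more were lower than higher. Fatty acid desaturases and elongases had 11 of 16 members lower and 1 higher. fat-7, a stearoyl-CoA desaturase, fell from 2.86–13.8 to 0–0.197 CPM (-6.21), and elo-6, which lengthens branched-chain fatty acids, from 42.8–106 to 1.30–5.09 CPM (-4.49). In fatty acid oxidation 17 of 32 were lower and 3 higher. acdh-1, an acyl-CoA dehydrogenase whose level follows the bacterial diet, stood at 24.6, 27.5, 42.7, 29.7 and 31.8 CPM in L4 libraries A to E and 0.295, 0.576, 0.359, 0.158 and 0.293 CPM in Day 13 libraries A to E. No library of Day 13 reached the lowest of L4 (log2 change -6.53 ± 0.48, SE, edgeR adjusted p = 7.4e-06). Of 20 lipases and lipid-binding genes 7 were lower, 3 were higher and the others did not pass. Of 25 genes of glycolysis and the glyoxylate cycle 12 were lower and none higher. aldo-2, an aldolase gene and the most abundant of them, did not pass (-0.62), and the aldolase aldo-1 fell from 132–343 to 30.1–59.8 CPM. Among detoxification genes, 9 of 17 UDP-glucuronosyltransferases were lower and 2 higher, and 8 of 18 glutathione transferases were lower and 2 higher. gst-24 and gst-26 went opposite ways. gst-24 rose from 5.75–98.0 to 63.7–1041 CPM, with overlap, and gst-26 fell from 2.96–134 to 0–2.01 CPM.

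Transcripts for the respiratory chain fell in both genomes. Of 12 genes of the mitochondrial genome 11 were lower and none higher, with a median of -1.41, and of 50 nuclear genes 26 were lower and none higher, with a median of -1.01. The mitochondrial COX2 stood at 96.5, 121, 194, 81.3 and 94.6 CPM in L4 libraries A to E and 26.2, 26.2, 27.8, 33.0 and 16.8 CPM in Day 13 libraries A to E. All Day 13 values were below all L4 values (log2 change -2.18 ± 0.38, SE, edgeR adjusted p = 0.000796). Of the nuclear genes, cyc-2.2, for cytochrome c, had the largest decrease, from 3.61–6.75 to 0.0328–0.224 CPM. The proton pump of acidic compartments, the vacuolar ATPase, had 13 of 21 subunit genes lower and none higher, and vha-6, its subunit on the intestinal lumen side, fell from 3.93–26.5 to 0.209–0.491 CPM (-4.83 ± 0.66, SE). By contrast, cytosolic ribosomal proteins, which took most of the reads, had a median of -0.42 and 10 of 83 members lower, a share below the background. The 10 most abundant genes at each age were all cytosolic ribosomal protein genes and none of them passed, with rps-25 the highest at 14939–41134 CPM at L4 and 10590.0–34469 CPM at Day 13 (-0.24 ± 0.38, SE). Of 66 mitochondrial ribosomal proteins 11 were lower and 1 higher. In the proteasome 4 of 33 were lower and none higher, and of the large chaperones 2 of 26, hsp-60 of the mitochondria among them (-1.74).

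Oocyte and eggshell genes rose. Of 29 members 22 were higher at Day 13 and none lower, with a median of 1.73. Their sum was 3920.3, 4414, 3045, 138 and 124 CPM in L4 libraries A to E and 14501, 18052, 18993, 8037 and 9348 CPM at Day 13. L4 libraries A to C already held far more than D and E, and every Day 13 library held more than every L4 library. The median change was 0.80 in letters A to C, with 12 members called higher, and 4.11 in D and E, with 29. perm-4, a gene of the eggshell's vitelline layer, stood at 1903, 2300.2, 1878, 29.7 and 20 CPM in L4 libraries A to E and 11456, 14385, 13395, 3282 and 3110.2 CPM in Day 13 libraries A to E. The ages did not overlap, and the log2 change was 2.90 ± 1.13 (SE, edgeR, adjusted p = 0.0607), a call lost without the Day 13 library B or C. cpg-2, a chondroitin proteoglycan of the eggshell, rose from 14.4–91.4 to 61.7–1367 CPM (3.83 ± 1.02, SE), with 1 L4 library, A, within the Day 13 range, and it was not called in letters A to C alone. Genes of germline stem cells, P granules and meiosis had 5 of 33 higher and none lower, a share below the background. The notch-type receptor of the stem cells, glp-1, was higher (1.82) and pgl-1 and glh-1 of the P granules did not pass. Of the embryo markers, the endoderm genes end-1, end-3 and med-1 gave at most 2 counts in any library. Maternal pie-1 rose from 1.05 to 2.56 CPM at L4 to 2.93 to 10.05 CPM at Day 13, and hch-1, a protease of hatching embryos, from 0 counts in every L4 library to 0.960–7.16 CPM, at least 22.3-fold. The part of eggs held inside the adults in these values was not tested.

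Yolk genes went opposite ways in the 2 sets of letters. The 6 vitellogenin genes summed to 11438, 15255, 8758, 192 and 153 CPM in L4 libraries A to E and to 1226, 3878, 2554, 956 and 2846 CPM at Day 13. L4 A to C were above all Day 13 libraries and L4 D and E were below them. In letters A to C all 6 genes were called lower, with a median of -3.78, and in D and E 4 were called higher and none lower, with a median of 3.61. Over all letters 2 were called lower. vit-6, which encodes the yolk protein of a class of its own, stood at 5763, 10553, 5329.9, 86.0 and 66.9 CPM in L4 libraries A to E and 984, 3434, 1724, 518 and 1155 CPM in Day 13 libraries A to E, a log2 change of -1.48 ± 1.10 (SE, edgeR, adjusted p = 0.301). vit-3, one of several near-identical copies, fell from 11.4–1003 to 0.884–7.58 CPM, but was not called in D and E alone. No direction can thus be given for yolk RNA between L4 and Day 13 in this strain.

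Genes of DNA replication and cell division rose, with 27 of 38 higher, none lower and a median of 1.25. cyb-3, for a B-type cyclin, stood at 5.49, 6.02, 3.18, 1.26 and 1.95 CPM in L4 libraries A to E and 18.9, 27.0, 16.5, 26.1 and 15.5 CPM in Day 13 libraries A to E. The ages did not overlap (log2 change 2.54 ± 0.49, SE, edgeR adjusted p = 0.00159). pri-2, a primase subunit gene that overlaps a gene on the other strand, rose from 29.8–63.2 to 87.0–209.9 CPM, and rnr-1, for ribonucleotide reductase, did not pass (1.11). Of 24 core histone genes tested 15 were higher and 2 lower. his-72, which encodes a replacement histone of the H3.3 type, rose from 34.8–89.6 to 102–276 CPM (1.54 ± 0.43, SE). his-64 rose from 0.0871–0.354 to 5.01–18.1 CPM (5.26), and his-35, among the most abundant of the list, did not pass (-0.07). Many histone genes are near-identical copies without poly(A) tails, so their reads are uncertain. FUDR, which blocks DNA synthesis, was present only at Day 13.

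Of 25 autophagy genes 19 were higher and none lower, with a median of 1.33. Letters A to C alone called 21 higher and D and E alone 11, and neither called any lower. lgg-1, whose product coats the autophagosome, stood at 5.49, 10.6, 5.53, 5.57 and 2.66 CPM in L4 libraries A to E and 26.3, 49.6, 19.9, 20.5 and 16.3 CPM in Day 13 libraries A to E. All Day 13 libraries were above all L4 libraries (log2 change 2.15 ± 0.47, SE, edgeR adjusted p = 0.00372). epg-2, an adaptor for cargo, rose from 0.131–2.30 to 4.04–25.8 CPM (3.34), while lmp-1, a lysosomal membrane protein gene, did not pass (0.57). Of 55 F-box and MATH domain genes tested, of 397 in the table, 27 were higher and 3 lower, but their summed level overlapped between the ages. The abundant members bath-36 (-0.69) and fbxc-45 (0.25) did not pass, and fbxb-11, the largest increase, went from 0–1 counts to 0.524–3.85 CPM. Small heat shock proteins had 5 members tested, with 1 higher and 3 lower. sip-1, which is known from oocytes and embryos, stood at 3423, 3770.0, 2185, 144 and 114 CPM in L4 libraries A to E and 10582, 14314, 14473, 5878 and 8601 CPM in Day 13 libraries A to E. All Day 13 libraries were above all L4 libraries, of which D and E were far below A to C (log2 change 2.48 ± 0.87, SE, edgeR adjusted p = 0.0395). hsp-12.2 fell from 34.7–147 to 2.69–9.86 CPM (-3.61). Both overlap a gene on the other strand.

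The 10 largest increases under the naming rule were of genes near 0 at L4. The uncharacterized C54C8.12 rose from 0–0.476 to 166–691 CPM (10.99) and the neuropeptide-like nlp-39 from 0–0.303 to 146–309 CPM (10.72). Both lie on chromosome I, with clec-11 and C54C8.8, which had too few reads to test, between them. dct-8, named from a search for targets of the insulin pathway's DAF-16 that affect germline tumours, stood at 0.708, 1.30, 0.523, 0.251 and 0 CPM in L4 libraries A to E and 673, 1902, 853, 1448 and 662 CPM in Day 13 libraries A to E. It was among the most abundant genes of its list at Day 13 and barely detected at L4 (log2 change 10.94 ± 1.09, SE, edgeR adjusted p = 2.94e-05). F56D6.8 and F56D6.9, its neighbours on chromosome IV, rose with it, from 0.251–0.822 to 462–865 CPM and from 0–1.18 to 179–532 CPM. F56D6.9 overlaps another gene on the same strand. The neighbours beyond them had too few reads to test. C18D11.6 on chromosome III rose from 0–0.425 to 37.6–145 CPM, with Day 13 library E the lowest of its age. The others were clec-266, clx-1 on chromosome IV (0–1 counts at L4, 3.08–22.5 CPM at Day 13), and the annotated snRNA genes C27H5.11 and sup-39. All 11 snRNA genes tested were called higher, in libraries made from RNA with poly(A) tails, which mature snRNA normally lacks. Several may be near-identical copies, and this class was tabulated after its values were seen. Outside the lists' largest groups, the metallothionein gene mtl-1 rose from 1.45–15.2 to 462–1014 CPM (log2 change 6.13 ± 0.68, SE, edgeR adjusted p = 4.95e-05), while its paralog mtl-2 held 471–811 CPM at L4 and 202–1063 CPM at Day 13 and did not pass (-0.16).

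**Figure D3:**
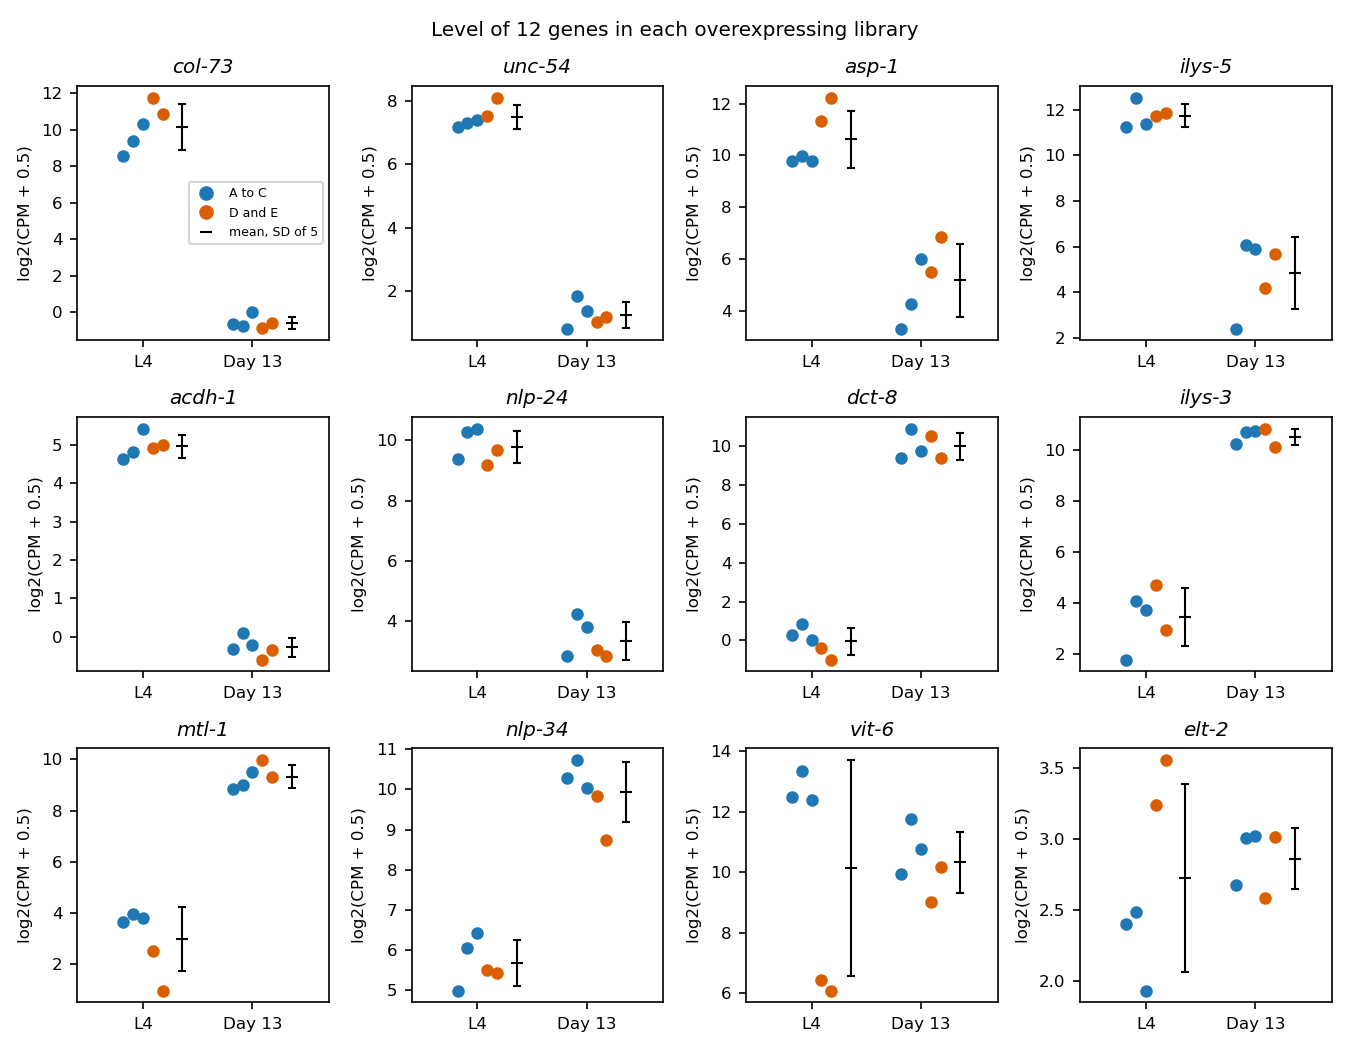
Level of 12 genes, as log2(CPM + 0.5), in each library at L4 and Day 13; blue points are letters A to C, orange points D and E, and the black mark with bars is the mean and SD of 5. The ages are wholly apart for the first 10 genes, whereas vit-6 overlaps through the low L4 libraries D and E, and elt-2 overlaps throughout.

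Among regulators, 13 of 40 nuclear hormone receptors tested were higher and 9 lower, near the background, and the sign of their median turned with the scaling. nhr-114, a receptor of the intestine and germ line, fell from 5.40–43.6 to 0.0960–0.753 CPM (-5.54). Of 17 transcription factors known for effects on lifespan 5 were higher, near the background share, and 2 lower, below it. The most abundant, mxl-2, whose product pairs with a Mondo-type partner, rose from 41.4–149.95 to 166–577 CPM (1.83 ± 0.50, SE), and the epidermal GATA factor gene elt-3 was lower, from 0.563–3.01 to 0.224–0.594 CPM, with overlap. Transthyretin-related genes had 11 higher and 10 lower of 38, near the background in both directions. ttr-51 rose from 4.21–14.2 to 79.4–234 CPM. Of 6 genes the study used as qRT-PCR references, 3 were higher at Day 13: htz-1, for histone H2A.Z (1.86 ± 0.31, SE), cdc-42 (1.21 ± 0.33) and let-70 (1.02 ± 0.33, not called in letters D and E alone). tbb-2 (-0.16), iscu-1 (0.53) and pmp-3 (0.68) did not pass.

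By position, the X chromosome had 924 genes tested, of which 21.2% were higher and 34.3% lower, with a median log2 change of -0.32, and chromosome I had 1679, of which 28.5% were higher and 18.3% lower, with a median of 0.40. The other autosomes had medians of 0.17 to 0.32. The markers of body wall muscle (5 of 5), epidermis (5 of 5), sperm (4 of 4) and intestine (5 of 6) were lower at Day 13, those of the germ line were higher in 3 of 5, and none of the intestine, muscle or epidermis markers was at 0 in all libraries of an age. The part of a changed make-up of tissues in the lists was not tested.

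Most lists had medians of the same sign in both sets of letters. Of 4199 called genes tested in both sets, 26 had opposite directions. These genes were chosen by the call over all letters, in which opposite moves of the sets cancel. The small count was thus largely fixed in advance and does not measure how alike the sets are. vit-6 (-2.01 in A to C and 3.60 in D and E) and col-106 (-2.80 and 2.53) moved oppositely and were not called. The body shape collagens had a median of -6.46 in A to C and -11.22 in D and E, the proteases -2.88 and -3.84, the major sperm proteins -6.19 and -3.86, and autophagy genes 1.20 and 1.40. Besides vitellogenins, the dod, dct and irg response genes (-0.99 and 0.03), cytochrome P450 genes (0.32 and -0.50), nuclear hormone receptors (0.20 and -0.04) and SCP/TAPS secreted proteins (-0.81 and 2.06) had medians of opposite sign.

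**Figure D4:**
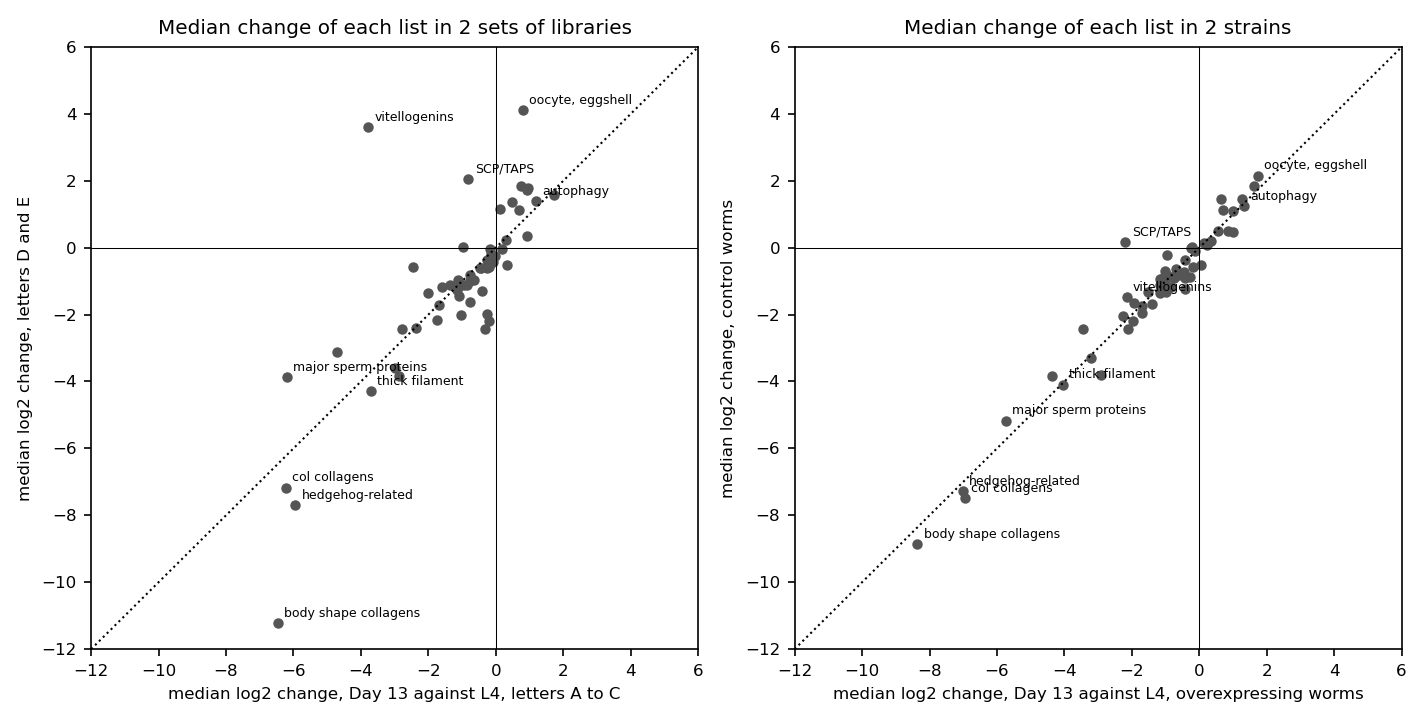
Median log2 change (Day 13 against L4) of each gene list with at least 5 tested members, each a grey point; left, letters D and E against letters A to C in overexpressing worms, and right, control against overexpressing worms over genes tested in both strains, with equality dotted. Vitellogenins lie far from the line on the left, at -3.78 and 3.61, and on the right most lists lie near the line.

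The same age comparison in control worms, which share none of these libraries, gave medians of the same sign for 5 main lists: -7.49 for col genes (overexpressing -6.95), -5.17 for major sperm proteins (-5.73), -4.09 for thick filament genes (-4.04), -2.44 for proteases (-3.46) and 1.23 for autophagy genes (1.33). Control L4 libraries parted by letter as well. Their vitellogenins summed to 13512, 5895 and 11718 CPM in A to C and to 16.98 and 4.59 CPM in D and E. Their major sperm proteins summed to 7126–7855 CPM in A to C and 138–560 CPM in D and E. Their thick filament sums did not part, at 3148–3579 and 2526–3849 CPM. The control comparison is thus not free of the split between the sets. Other lists had medians of opposite sign in the strains, among them SCP/TAPS secreted proteins (0.17, overexpressing -2.19) and transthyretin-related genes (-0.53, overexpressing 0.05). Whether the age change of a gene differed between the strains was tested directly. No gene of 10545 (0%) passed in edgeR's interaction test with all 20 libraries, 266 (2.52%) had an unadjusted p below 0.05, and DESeq2 also called 0, with 312 at an unadjusted p below 0.05. With letters A to C alone 138 genes were called, and with D and E alone 20, both settings chosen after seeing the data. Over all letters no change above is shown to be particular to overexpressing worms, and a missed threshold does not show that the strains age alike. Among called genes the smallest unadjusted interaction p was that of F56D6.9 (0.0012), whose log2 change was 8.99 in overexpressing and 3.62 in control worms. The other 4 genes named by this measure were clx-1 (9.21 and 4.90), T19H12.6 (-9.64 and -5.62), F15E6.10 (6.31 and 2.88) and lido-9 (1.72 and 3.53).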

How the data were processed

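The deposited table holds counts of 3SEQ reads per gene in 20 whole-worm libraries. Per the labels the authors enriched poly(A) RNA and ligated barcoded adapters, and the submitters' processing notes name Bowtie 0.12.7. The counter, genome build, annotation, use of strand and treatment of duplicates are not given in the sources used here. Gene names came from Ensembl 115 (WBcel235), which matched 20878 of 21383 IDs (97.6%). No sequence was given, so that none is printed and no promoter motif was searched. The table's 3 columns without a header were not used.

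The count test was edgeR's robust quasi-likelihood F test (version 4.0.16, R 4.3.3) after filterByExpr and TMM, with no block, over the 10 overexpressing libraries, and Benjamini-Hochberg adjustment at 10%. SE is the log2 change divided by the square root of F. The fits were also run on simulated counts of independent libraries without sets of letters. That run cannot show how the fits behave under the split between sets seen here. Replicates are described as biological, and p-values measure the spread between these libraries. Alternatives were RLE factors, DESeq2 1.42.0, 2 other filters, totals without the top 3% of genes, the letter as a block, a rank product, each letter set and each library left out.

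Members and lists were chosen with earlier results of these data known. Genes named are the 10 largest increases and decreases among genes called, moving 1 way in all 5 letters and with at least 10 CPM in the higher group, the 10 most abundant at each age, the 2 most abundant members and the largest called change in each direction of each list, all genes of the transgene, reference, reporter and intestinal GATA lists, and 5 called genes with the smallest interaction p. Cell type markers are named besides. Floors of 3 counts cover counting error only. Of 241 such genes, 57 overlap a gene on the opposite strand and 26 on the same, and their reads are uncertain.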

Additional observations from a re-analysis of the deposited data

Results flagged for a closer look

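In 21 of 608 groups of 5 libraries (3.45%), a single library stood apart from the other 4, by a gap that took over 0.71 of the group's range. Chance gives about 1 in 20. Groups of a named gene with at most 3 counts in their highest library are among the 608 but could not be flagged. The 3.45% thus understates the share among groups that could be. At Day 13, library E stood apart in log2(CPM + 0.5) of C18D11.6 (gap over range 0.782), fbxb-11 (0.763), gst-26 (0.759), nlp-27 (0.897) and sup-39 (0.720), and in the summed CPM of nlp genes (0.742). Library D of Day 13 stood apart for mtm-6 (0.833) and unc-119 (0.719), C for col-147 (0.773), B for grd-3 (0.760) and A for the sum of lysozymes and saposins (0.724).

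At L4, library D stood apart for cox-6C (0.731), cpr-2 (0.893), lido-9 (0.732), nas-9 (0.860), rpl-23 (0.766) and tba-2 (0.841). Library E of L4 stood apart for T19H12.6 (0.718) and for the sum of glycolysis and glyoxylate genes (0.730), A for cpg-2 (0.869) and B for vha-13 (0.738).

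Day 13 minus L4 of log2(CPM + 0.5) for unc-119 was lower in overexpressing than in control worms by -1.48 on average, and every letter fell in overexpressing worms and rose in control worms. In edgeR's interaction test over all 20 libraries the adjusted p was 1.00. Control libraries held at most 32 counts of this gene, as described above.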

How the results depend on the processing

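Of 4361 genes changed, 2291 were higher and 2070 lower. Without a filter on low counts 6587 changed and 3644 were lower, over 18080 genes. A rank product over same-letter ratios called 1244, of which 480 were higher and 764 lower. The share of calls that were higher was 52.5% with TMM, 46.3% with RLE factors, 49.0% with DESeq2, 54.9% with totals without the top 3% of genes and 38.6% with the rank product. The median log2 change of all genes was 0.22, 0.08, 0.08, 0.38 and 0.52 in the same order. Leaving out each library in turn gave 3928 to 4818 genes changed, 1765 to 2530 higher and 1945 to 2288 lower, and 0 to 0 for the difference between strains. The main fit did not pair by letter, so the difference between the sets of letters stayed in its spread. Deviations of same-letter libraries from their group means correlated at 0.128, 0.527, 0.0886, 0.390 and 0.603 for A to E. Only B and E correlated best with their own letter. Taken from the mean of each set at each age, the deviations correlated at -0.156, 0.330, -0.483, 0.136 and 0.136. D and E share 1 value because their set holds only these letters. The fit with a replicate block, which takes up the difference between the sets, called 5141 genes.

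The difference between strains, 0 genes with all letters and under RLE factors, DESeq2, no filter, the block and each letter left out, was called for 138 genes in letters A to C alone and for 20 in D and E alone, 2 settings chosen after seeing the data. The cause was not tested.

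Letters D and E alone reversed the sign of col-106 (log2 2.53), col-140 (0.25), srp-2 (2.10), vit-2 (3.62) and vit-6 (3.60). Of 176 named genes called, 30 lost the call under at least 1 alternative other than the rank product. The median turned sign with RLE factors and DESeq2 for nuclear hormone receptors, with totals without the top 3% for the intestinal GATA, oxidant defence, proteasome and transthyretin-related lists, and with the rank product for these 4 and the nlp, lipase, large chaperone, and abu and pqn lists. Genes outside the top 3% shared at most 1032754 counts a library, which limits what could be seen of low genes.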

Other observations

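Other groups of genes are given here as values, with changes as log2 of Day 13 against L4. Of 10 alpha and beta tubulins 5 were lower and 1 higher. The alpha tubulin tba-1 rose from 465–998 to 875–2495 CPM (1.18 ± 0.39, SE), with overlap and without a call in letters D and E alone, and tba-9 fell from 6.10–11.7 to 0.0897–0.795 CPM (-4.60 ± 0.61). The more abundant tba-2 did not pass (0.44). Of 5 genes of cilia 3 were higher and 1 lower, and dyf-3, which builds sensory cilia, rose from 3.60–12.8 to 30.2–60.7 CPM (2.28 ± 0.44). Of the other calls, bbs-5 (higher) and che-10 (lower) overlapped between the ages and were lost under several alternatives, D and E alone among them.

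In oxidant defence 4 of 18 genes were higher and 2 lower, shares below the background. msra-1, a methionine sulfoxide reductase, fell from 30.7–79.2 to 0.753–1.58 CPM (-5.48 ± 0.46, SE), sod-4, the extracellular superoxide dismutase, rose from 0.150–0.566 to 0.921–2.85 CPM (2.44 ± 0.43), and the abundant prdx-2, a peroxiredoxin (-0.54), and sod-1 (-0.13) did not pass. Both msra-1 and sod-4 overlap a gene on the other strand. Of 18 dod, dct and irg response genes 7 were higher and 9 lower, with dct-16 falling from 1283–2293 to 38.0–97.1 CPM (-4.78 ± 0.44) as dct-8 rose. Among 38 glutamine-rich abu and pqn genes 7 were higher and 13 lower.

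Of 7 SCP/TAPS secreted proteins 3 were higher and 2 lower. scl-20 went from 0–1 counts a library at L4 to 3.60–14.8 CPM at Day 13 and vap-1 from 0.563–72.0 to 0–0.419 CPM. Of 11 insulin-like peptides 3 were higher and 3 lower, near the background shares. Of these, ins-37 fell from 18.4–82.2 to 8.87–18.1 CPM (-1.61 ± 0.48, SE) and overlaps genes on both strands. The lipid-binding far-3 rose from 0.293–0.828 to 5.07–13.9 CPM (4.02 ± 0.46), while the far more abundant far-1 (-0.98 ± 0.40) and far-2 (-1.91 ± 0.75) were lower, calls that ended when any of several single libraries was left out.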
